A study of Mus musculus with 77 samples.

Results

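The regions described here are 298 intervals called as p53 peaks in bone-marrow-derived macrophages of C57BL/6J (B6) mice both in room air and in hyperoxia. They are the intervals of the hyperoxia peak list that share at least 1 base with an interval of the room-air list, so they were chosen by the positions of called peaks in both lists, which rest on the measured tag counts, and they make up 8.51% of the 3500 hyperoxia intervals and 7.26% of the 4107 room-air intervals. The 10 peak lists of the series hold 11305 intervals in all, with coordinates on mm10. Macrophages grown from bone marrow spent 24 h in room air or in hyperoxia. The RNA table marks these cultures "invitro95", and the labels give no oxygen level for them. DNA bound by p53 was isolated with an antibody to p53 and sequenced (ChIP-seq), in 2 samples per group, and each list pools its 2 samples, so no binding value has a replicate check. Poly(A) RNA was sequenced from macrophages of B6, of Trem2 knockout mice (KO, titled T2KO) and of the inbred strain DBA/2J (DBA), each in room air and hyperoxia, with 2 libraries in each of the 6 groups. The labels give the KO ChIP samples the genotype C57BL/6J while their titles say T2KO, and the title was followed. In lungs, p53 was mapped at postnatal day 14 in mice of the same 3 genotypes raised in room air or in 75% oxygen.

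The protein p53 is a transcription factor that is held at a low level by the ubiquitin ligase Mdm2 and is stabilised when DNA is damaged, as by oxygen radicals. It binds DNA as a tetramer at an element of 20 bases made of paired copies of a short palindrome, and it switches on genes for cell cycle arrest, DNA repair, cell death and its own feedback. The targets include Cdkn1a for arrest, Bbc3 and Bax for death and Mdm2 for feedback. Macrophages are phagocytes of the innate immune system, and Trem2 is a lipid-sensing receptor on their surface.

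Promoter sequences show what lies under the kept peaks. Of the 132 genes with a start site within 10 kb of a kept peak, 100 have a RefSeq promoter window (GRCm38.p6, 250 bases before to 50 bases after a start). Over all RefSeq windows, 30 of 25 genes overlap 23 kept peaks. By symbol, 20 of the 25 are among the 132 genes, and 5 are not (Gm51651, Gm29878, Gm39039, Gm39853 and Inka2). The Inka2 window lies inside the span of Fam212b, 1 of the 132 genes, on the same peak (chr3:105705288-105705488, scores 54 and 13). A match by symbol misses a gene that is listed under another name. Printed below is the stretch of each window that lies inside the peak, 5′ to 3′ on the gene's strand, for genes that the results turn on. Capitals mark the best match to the p53 consensus where it has at most 3 mismatches in 20 positions. The strongest kept peak (Gm51651, a predicted gene), the arrest gene Cdkn1a, the cyclin gene Ccng1, the death genes Bbc3 and Aen and the mitotic spindle gene Ckap2 carry such a match. Phlda3 and C1qc are shown as stretches without one, and the Phlda3 window covers 111 of the 201 bases of its peak.
Gm51651, chr1:155056274-155056426, plus strand: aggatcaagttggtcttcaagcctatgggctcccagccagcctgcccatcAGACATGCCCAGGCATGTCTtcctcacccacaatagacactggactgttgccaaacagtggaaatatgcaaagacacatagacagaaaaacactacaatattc
Cdkn1a, chr17:29090839-29091028, plus strand: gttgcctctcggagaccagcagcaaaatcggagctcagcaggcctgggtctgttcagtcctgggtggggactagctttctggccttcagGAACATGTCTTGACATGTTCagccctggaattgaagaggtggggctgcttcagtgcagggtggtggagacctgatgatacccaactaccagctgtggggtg
Ccng1, chr11:40755363-40755536, minus strand: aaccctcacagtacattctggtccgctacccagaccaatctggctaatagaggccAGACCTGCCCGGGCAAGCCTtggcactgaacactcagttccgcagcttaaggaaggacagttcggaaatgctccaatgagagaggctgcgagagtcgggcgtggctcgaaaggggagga
Bbc3, chr7:16309401-16309601, plus strand: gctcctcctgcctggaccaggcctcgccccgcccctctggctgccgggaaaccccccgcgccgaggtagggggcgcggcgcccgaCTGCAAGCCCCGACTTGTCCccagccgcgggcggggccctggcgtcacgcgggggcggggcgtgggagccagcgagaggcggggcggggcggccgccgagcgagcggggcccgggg
Aen, chr7:78895839-78896039, plus strand: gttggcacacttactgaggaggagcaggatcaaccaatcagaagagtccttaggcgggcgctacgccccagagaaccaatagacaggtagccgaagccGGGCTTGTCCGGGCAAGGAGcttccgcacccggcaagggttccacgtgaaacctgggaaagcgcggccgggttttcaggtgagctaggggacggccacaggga
Ckap2, chr8:22185898-22186069, minus strand: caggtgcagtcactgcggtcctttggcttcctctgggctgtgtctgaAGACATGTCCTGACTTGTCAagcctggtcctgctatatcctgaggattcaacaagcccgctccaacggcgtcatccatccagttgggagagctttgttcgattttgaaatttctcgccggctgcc
Phlda3, chr1:135766024-135766134, plus strand: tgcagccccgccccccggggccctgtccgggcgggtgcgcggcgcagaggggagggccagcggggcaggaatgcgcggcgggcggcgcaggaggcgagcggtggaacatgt
C1qc, chr4:136892915-136893115, minus strand: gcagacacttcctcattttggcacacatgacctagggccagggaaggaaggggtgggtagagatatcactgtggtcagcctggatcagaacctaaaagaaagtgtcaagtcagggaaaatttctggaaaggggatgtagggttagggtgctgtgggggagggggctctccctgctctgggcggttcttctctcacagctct

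The match in the Gm51651 window had 0 mismatches, those of Cdkn1a and Ccng1 had 1, that of Ckap2 had 2, and those of Bbc3 and Aen had 3. In these 6 windows the centre of the match lay within 14 bases of the centre of the peak. At most 2 mismatches were found in 8 of the 30 windows (26.7%) and in 262 of all 32851 promoter windows of the same length (0.798%). The 8 windows are not independent: Ckap2 and Gm29878 face each other across 1 match, and 2 windows of Zfp958 share 1 that lies outside the peak. Counted by peak and only inside the peak, 5 of 23 kept peaks that touch a window held such a match (21.7%), against 8 of 104 hyperoxia-only peaks (7.69%) and 0 of 170 room-air-only peaks. Only the best match of each window was placed. Kept peaks were chosen for being called in both lists and had higher scores, so these shares are only a description. A strict paired core, read on both strands, stood in the windows of Gm51651 and Cdkn1a and in 0.712% of all windows. It fixes letters at positions where the consensus allows A or T, so a match to the consensus can lack it. The matches printed for Ccng1, Bbc3, Aen and Ckap2 lack it. The shorter core GNCATGNC, which overlaps the consensus, was in 23.3% of the 30 windows and 6.66% of all windows. NF-Y letters (CCAAT) were in 53.3% and 37.4%, GC boxes (GGGCGG) in 43.3% and 35.7%, and AP-1 letters (TGANTCA) in 10% and 7.81%. Each of 9 further motifs, all read on both strands, was in 0 to 3 of the 30 windows. NRF1 letters were in 6.67% (2 windows) and in 0.971% of all windows, PU.1 in 6.67% and 3.20%, and CRE in 3.33% and 1.79%. ETS was in 10% and 8.86%, E-box in 10% and 7.15%, and ARE in 10% and 12.4%. C/EBP was in 6.67% and 10.8%, the CTCF core in 0% and 0.326%, and an interferon element in 0% and 3.44%. A match is a string of letters in a window and not a measured site.

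Another kept peak, chr9:51105875-51106075, lies -2330 bases from the start of Mir34b and -2865 bases from that of Mir34c, where a negative position is upstream. The products of these genes are microRNAs of the miR-34 family, known targets of p53. The peak scored 47 in hyperoxia and 9 in room air. Both genes are listed at 0 TPM in all 12 macrophage libraries, and poly(A) libraries do not measure mature microRNAs. The mature sequences of 3 of the 4 arms are given with their seed, bases 2 to 8, in capitals, and miR-34c-5p is named only. The 2 arms ending in 3p share the seed AUCACUA, and miR-34b-5p has the seed GGCAGUG.
mmu-miR-34b-5p: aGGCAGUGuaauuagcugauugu
mmu-miR-34b-3p: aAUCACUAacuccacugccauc
mmu-miR-34c-3p: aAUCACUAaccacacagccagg

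Kept peaks held most of the highest scores in either condition. The score of a peak is the number of ChIP tags in its 201 bases scaled to 10 M tags (M, mega), as the authors' peak caller gave it. All 15 intervals of highest score were kept in both lists, and so were 94 of the 100 highest in hyperoxia and 82 of the 100 highest in room air. Some of the highest in room air scored lower in hyperoxia, and higher in the KO room-air list than in B6. They include chr2:98662599-98662799 (331 in room air, 297 in hyperoxia, 445 in KO room air). Others are chr9:35305352-35305552 (322, 214 and 397) and chr14:19417742-19417942 (224, 162 and 311). The median score of the kept peaks was 47 in hyperoxia (range 10 to 451) and 22 in room air (8 to 380), against a median of 13 over each whole list. These scores chose the members, so they are given as a description without a test. The score was higher in hyperoxia at 242 kept peaks, equal at 13 and lower at 43. The median ratio of hyperoxia to room air was 2.01 (0.571 to 11.5), with 152 peaks at 2-fold or more and 74 at 4-fold or more. The lists rest on 7850393 and 7761931 tags, so a score of 10 stands for 7.85 and 7.76 tags.

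**Figure D1:**
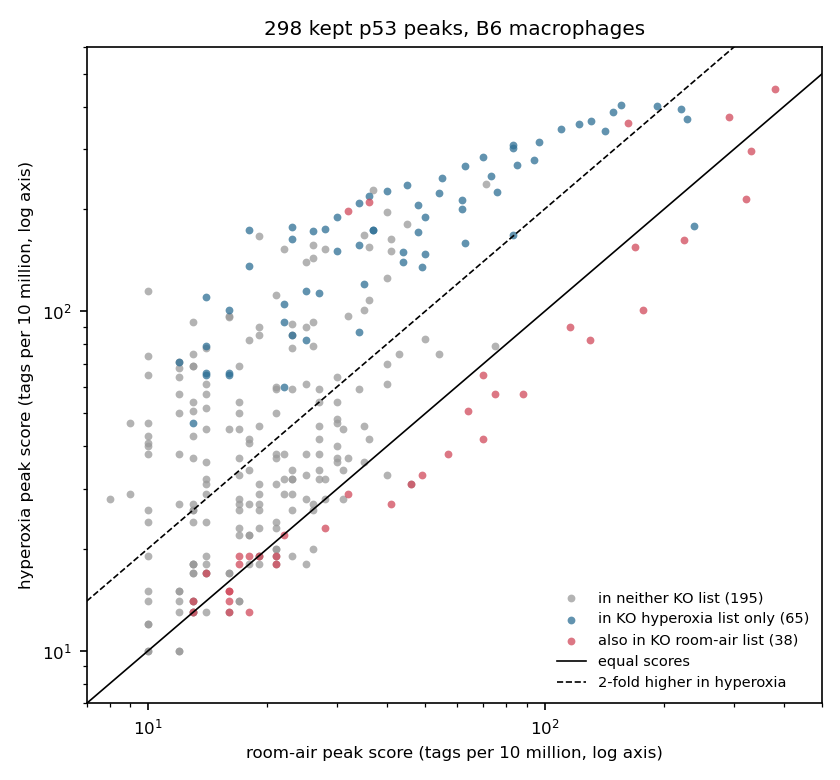
Peak score in hyperoxia (y axis) against room air (x axis) for the 298 kept peaks, both in tags per 10 M on log axes, with 1 point per peak coloured by presence in the KO macrophage lists. Most points (242) lie above the solid line of equal scores, and the 38 peaks also found in the KO room-air list lie mostly on or below it (25 lower in hyperoxia).

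The highest peaks mark known p53 target loci as well as DNA far from any start site in the RNA table. The strongest, chr1:155056226-155056426, scored 451 in hyperoxia and 380 in room air, and its nearest start site in the RNA table is that of Gm9530, 26938 bases away. It overlaps the RefSeq promoter window of Gm51651, a start that the RNA table does not list. The peak upstream of Bbc3 (chr7:16308597-16308797) scored 401 and 192, that of Cdkn1a (chr17:29090839-29091039) 385 and 149, and that at the start of the noncoding RNA gene Trp53cor1 (chr17:29078952-29079152) 363 and 131. The Mdm2 peak (chr10:117717649-117717849) scored 355 and 122. Near Klhdc4 the score was almost as high in room air as in hyperoxia (373 and 291, chr8:121832645-121832845). At Dyrk3, a kinase gene, the values were 358 and 162. Of the 15 peaks of highest hyperoxia score, 7 have no start site of the RNA table within 10 kb. At the other end of the rule, the member with the smallest overlap shared 2 bases with its room-air interval (chr5:120893318-120893518, near Oas1g, scores 29 and 9), and the nearest interval outside it abutted a room-air interval with a gap of 0 bases (chr1:194660545-194660745, scores 14 and 16).

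Kept peaks lay nearer to genes than the other intervals in plain counts. A start site lay within 1 kb of 30 kept peaks (10.1%) and within 10 kb of 113 (37.9%). Within 10 kb the share was 27.5% among 3202 hyperoxia-only intervals and 30.5% among 3809 room-air-only intervals. A further 112 kept peaks were 10 to 50 kb from a start site and 73 were farther away. Of the 298, 122 lay inside the span of a listed gene. At the 30 peaks within 1 kb the hyperoxia score was higher at 29 and equal at 1, with a median ratio of 2.65. At the 73 peaks over 50 kb from a start the median ratio was 1.40.

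A larger share of kept than of unshared intervals was also called in Trem2 knockout macrophages. Kept peaks were chosen for being called in 2 lists and had higher scores (medians 47 and 22, against 13 over each list). The rule thus favours intervals that are called again, and the shares are only a description. Of the kept peaks, 101 (33.9%) overlapped the KO hyperoxia list and 38 (12.8%) the KO room-air list. For hyperoxia-only intervals the shares were 0.437% and 0.156%, and for room-air-only intervals 0.210% and 0.473%. The KO lists were called on 5777111 and 5569531 tags against the input of B6 macrophages, fewer than in B6. Tags in peaks were 0.25% and 0.23% in KO hyperoxia and room air, against 0.76% and 0.64% in B6. The part of depth and of this share in the overlap and in the scores was not tested. The 65 kept peaks found in KO hyperoxia and not in KO room air had a median ratio of hyperoxia to room air of 3.78 in B6, and 64 of them were higher in hyperoxia. At these 65 the hyperoxia score was higher in B6 than in KO at 64, with medians of 173 in B6 and 29 in KO and a median B6 to KO ratio of 5.48. Over all 101 kept peaks in the KO hyperoxia list, the score was higher in B6 at 70, with a median B6 to KO ratio of 3.80. The lists pool replicates, so these differences between genotypes have no test.

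The 38 kept peaks that were also in the KO room-air list behaved otherwise. Their median ratio in B6 was 0.901, and 25 of 38 scored lower in hyperoxia. Of them, 13 fall in clusters of intervals that lie close together or on unplaced contigs. In all, 7 kept peaks lie within chr9:3000015-3036184, where all 7 scored lower in hyperoxia, with scores of 27 to 101 against 41 to 177 in room air. A further 3 lie within chr2:98662599-98666954 (155 to 297 in hyperoxia, 169 to 331 in room air) and 5 on unplaced contigs, and these 8 also scored lower in hyperoxia. Of these 15 peaks, 13 are in the KO hyperoxia list and 13 in the KO room-air list. No repeat annotation was used here, and the input tags under these intervals were not analysed here. Without the 38 peaks the median ratio of the other 260 was 2.43.

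In lung tissue, kept peaks made up a large part of the hyperoxia list of B6 and smaller parts of the other lists. Here too the rule favours intervals of high score that are called again, so the shares are only a description. The hyperoxia list of B6 lungs holds 235 intervals, and 70 of them (29.8%) overlapped kept peaks, which is 23.5% of the kept peaks. Hyperoxia-only macrophage intervals took 54 of the 235, which is 1.69% of those 3202, and room-air-only intervals took 1. The 70 peaks shared with hyperoxic lung had a median macrophage ratio of 3.63 and scored higher in hyperoxia at 69, with 1 equal. The other 228 had a median ratio of 1.51. Only 8 kept peaks were in the room-air list of B6 lungs, 10 in the hyperoxia list of KO lungs and 8 in that of DBA lungs. The Cdkn1a peak scored 40 in hyperoxic B6 lung, the Zmat3 peak 32 and the Trp53cor1 peak 33. The lung lists hold few tags in peaks and differ in depth from 3992220 to 33025026 tags, so their lengths are not compared.

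**Figure D2:**
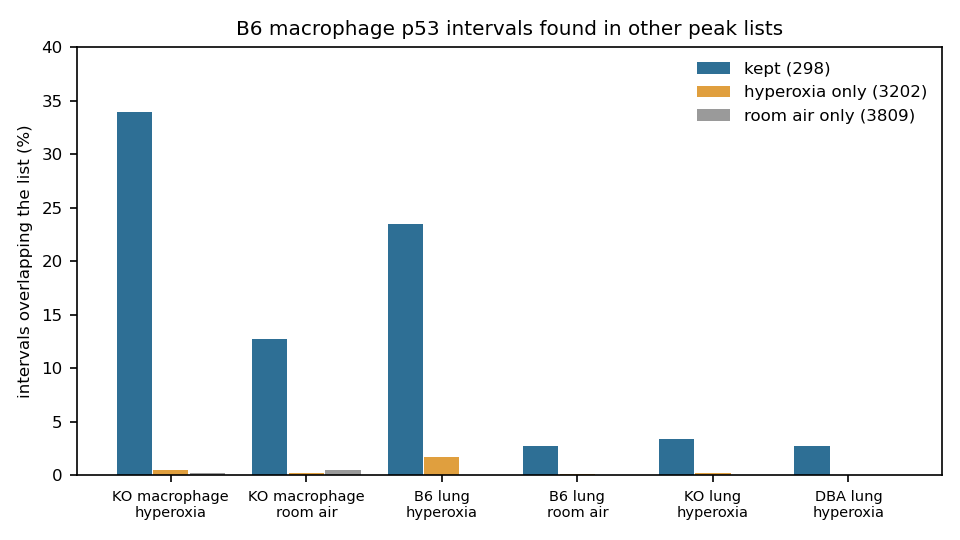
Share of kept, hyperoxia-only and room-air-only p53 intervals of B6 macrophages (y axis, percent of each group) that overlap 6 other peak lists (x axis). The bars for kept peaks reach 33.9% in KO hyperoxic macrophages and 23.5% in hyperoxic B6 lung, and those of the unshared intervals stay under 2%. Kept peaks were chosen for being called in both B6 lists and had higher scores than those lists as a whole.

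RNA was not used to choose the peaks, so the expression of genes beside them was tested. Values are the authors' TPM, transcript abundances scaled for length and depth, tested with limma on log2(TPM + 1) over all 12320 genes with at least 1 TPM in 2 of 12 libraries. The log2 fold change (log2FC) is on that scale, which understates the change of low genes. Of the 132 genes near a kept peak, 101 passed the filter on low values and 31 did not, among them 6 microRNA genes. The estimated depth was 14.6 to 47.0 M reads per library. The labels do not say whether 2 libraries of a group came from separate animals or cultures, so p-values measure the spread between these libraries, which may be technical. The macrophage markers Spi1, Csf1r, Adgre1, Cd68, Itgam, Mertk, Fcgr1, Lyz2 and Cd14 had means of 57.3 to 15194 TPM. Neutrophil markers summed to 27.4 to 48.3 TPM in B6 room air, against 5.34 to 9.43 TPM in B6 hyperoxia, and their part in the results was not tested. Macrophage markers summed to 24816 to 25183 TPM in B6 room air, against 18921 to 19374 TPM in B6 hyperoxia. Dendritic, lymphocyte and mast or erythroid markers each summed to at most 5.88 TPM in any B6 library, and 1 neutrophil and 1 mast or erythroid marker were at 0 in all libraries. None of these other-cell markers lies near a kept peak. In bulk cultures, fewer cells of a type and less RNA per cell cannot be told apart. Trem2 stood at 908 to 962 TPM in B6, at 236 to 252 TPM in KO and at 1007 to 1096 TPM in DBA libraries. Trp53, which has no kept peak, was 52.9 and 45.0 TPM in B6 room air, against 35.0 and 27.9 TPM in hyperoxia (log2FC -0.62, adjusted p = 0.00391).

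In B6 macrophages 20 of the 101 tested genes near a kept peak rose in hyperoxia (19.8%, beside 5.68% of all genes tested), and 26 fell (25.7%, beside 22.8% of all genes). The share that fell is near the background and is no result about these genes. Their median log2FC was -0.05 and that of all genes -0.13. With quantile normalization, which moves the median of all genes to 0.01, 23 rose and 12 fell, beside 10.3% and 10.6% of all genes under that setting. The B6 libraries of the 2 conditions did not overlap for any of the 20 that rose or the 26 that fell. Genes that were not called, such as Ei24 and Sp1, did not overlap either. The share over all genes was not counted, so this is no separate check on the calls. A fit on the 4 B6 libraries alone called 0 genes in either direction (limma), with 19 higher and 25 lower at an unadjusted p below 0.05, so the B6 calls rest on the spread shared by all 6 groups. Leaving out the room-air library marked MF or the hyperoxia library marked F lowered the number of falls, both among these genes and among all genes. Where the nearest kept peak was at least 2-fold stronger in hyperoxia, 18 of 61 genes rose and 13 fell. Where it was less than 2-fold stronger or weaker, 2 of 40 rose (Mylip and Cbr3) and 13 fell. Over the 101 genes the log2 score ratio and the log2FC had a Spearman rho of 0.21 and a Pearson r of 0.25, as a description across genes that share peaks and libraries. Of the 27 genes whose peak was also in the KO hyperoxia list 14 rose, and of the other 74 genes 6 rose. With the start site within 1 kb of a kept peak 9 of 28 rose, and at 1 to 10 kb 11 of 73.

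Of the 20 genes that rose, 10 are known p53 targets. Of the 55 genes on a list of p53 targets, 16 have a kept peak within 10 kb. All 16 were tested, 10 rose (Phlda3, Psrc1, Cdkn1a, Mdm2, Trp53cor1, Zmat3, Bax, Bbc3, Aen and Ccng1) and Btg2 fell, with a median log2FC of 0.62. The list was compiled with earlier results of these data known, and it is no independent evidence of direction. Of its 37 other tested members without a kept peak, 7 rose and 6 fell, with a median of 0.06. The 85 tested genes near a kept peak that are not on the list had 10 rises and 25 falls (11.8% and 29.4%). Of all genes, 5.68% rose and 22.8% fell. Lists of cell cycle, inflammation, immediate early, lysosome, Atf4 stress and histone genes, of 17 to 30 genes each, had 0 members near a kept peak. Only 132 of the 24940 listed genes are near one, so a count of 0 is no result about these lists.

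**Figure D3:**
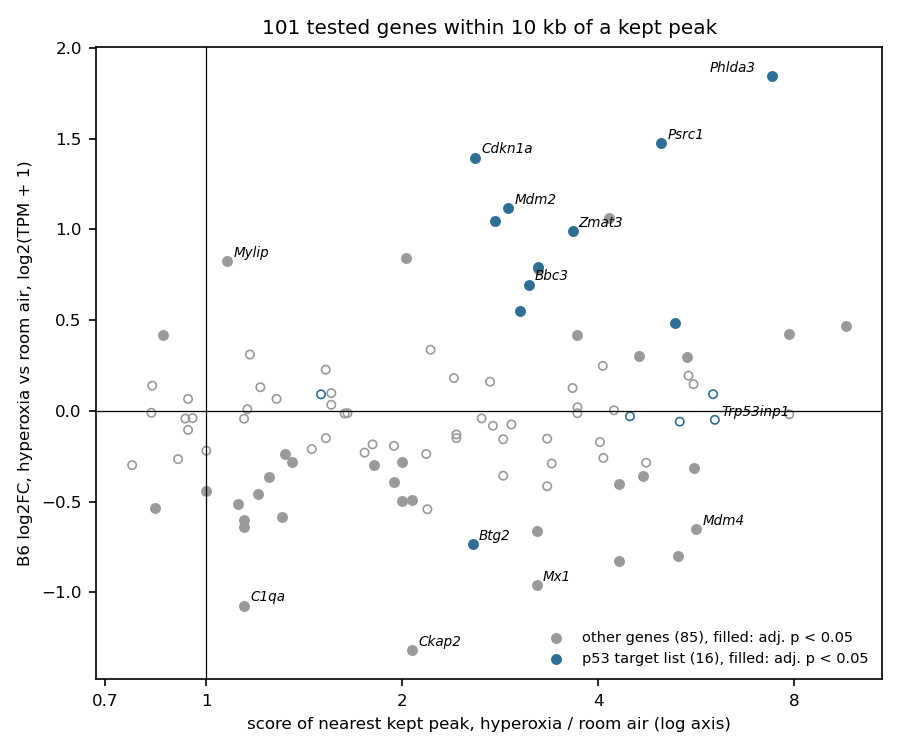
Log2FC of RNA in hyperoxia against room air in B6 macrophages (y axis) against the score ratio of the nearest kept peak (x axis, log scale) for the 101 tested genes; filled points have an adjusted p below 0.05. Of the 18 filled points above zero at a ratio of at least 2, 10 are genes of the p53 target list, while C1qa and Ckap2 are among the lowest points.

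Feedback genes moved in opposite directions. Mdm2, the ligase that degrades p53, had 52.8 and 50.2 TPM in the B6 room-air libraries and 120.3 and 106 TPM in the hyperoxia libraries. Both hyperoxia libraries lay above both room-air libraries, a 2.20-fold rise of the mean (log2FC 1.12 ± 0.08 SE, adjusted p = 3.44e-05). Its kept peak is centred at -6991 bases from the start. Mdm4, a related inhibitor of p53, has a peak inside the gene (chr1:133020214-133020414, scores 226 and 40), and its RNA was 12.0 and 11.5 TPM in room air, against 7.20 and 7.06 TPM in hyperoxia. Both values were lower in hyperoxia (0.606-fold, log2FC -0.65 ± 0.07 SE, adjusted p = 0.000336). Mdm2 thus rose and Mdm4 fell beside peaks that both gained score.

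Of the genes of arrest and growth, Cdkn1a, Trp53cor1, Phlda3, Psrc1 and Ccng1 rose and Btg2 fell. Cdkn1a, the cyclin-dependent kinase inhibitor p21, had 125 and 101 TPM in room air, against 343 and 257 TPM in hyperoxia (2.66-fold, log2FC 1.40 ± 0.13 SE, adjusted p = 0.000128). Trp53cor1, the noncoding RNA gene next to it, had 0.528 and 0.420 TPM in room air, against 2.61 and 1.56 TPM in hyperoxia (4.40-fold, log2FC 1.05, adjusted p = 0.00457), a change at a low level. Phlda3, an inhibitor of Akt signalling, went from 9.19 and 6.93 TPM to 31.2 and 31.4 TPM, the largest rise among the 101 genes on the log2(TPM + 1) scale (3.89-fold, log2FC 1.85 ± 0.11 SE, adjusted p = 2.14e-05). Its peak at the start site (chr1:135766024-135766224) scored 74 in hyperoxia and 10 in room air, and a second kept peak upstream scored 69 and 13. Psrc1, a microtubule-associated protein, had 5.17 and 2.97 TPM in room air, against 13.8 and 11.9 TPM in hyperoxia (log2FC 1.48, adjusted p = 0.000788), beside a peak of 150 and 30. Ccng1, a cyclin that p53 induces, had 53.4 and 52.7 TPM and then 74.2 and 75.0 TPM (log2FC 0.48, adjusted p = 0.0036). Against these, Btg2, an antiproliferative gene, had 24.0 and 25.2 TPM in room air, against 15.3 and 13.5 TPM in hyperoxia (log2FC -0.74, adjusted p = 0.000796), although its peak at chr1:134079293-134079493 scored 59 in hyperoxia and 23 in room air.

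Of the genes of cell death, Bbc3, Bax and Aen rose and Bcl2l11 fell. Bbc3 encodes Puma, a BH3-only activator of apoptosis, and has a pair of kept peaks upstream. Its RNA had 14.7 and 13.4 TPM in room air, against 22.7 and 24.1 TPM in hyperoxia (1.66-fold, log2FC 0.70, adjusted p = 0.00172). Bax, the pore-forming death effector, had 132 and 108 TPM and then 231 and 186 TPM (log2FC 0.79, adjusted p = 0.000911). Its peak, chr7:45466481-45466681, scored 200 and 62. Aen, an exonuclease of apoptosis, had 5.64 and 4.24 TPM and then 8.28 and 7.02 TPM (log2FC 0.55, adjusted p = 0.00935). Without the hyperoxia library marked MF the Aen call was lost (log2FC 0.44, adjusted p = 0.0571). In each of the 3 genes both hyperoxia libraries exceeded both room-air libraries. Bcl2l11, which encodes the BH3-only protein Bim and is named here after its values were seen, went the other way, from 37.5 and 33.4 TPM to 29.6 and 23.8 TPM (log2FC -0.40, adjusted p = 0.0137), with a peak of 155 and 36 inside the gene.

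Of the remaining targets on the list, Zmat3 rose and 5 were not called in B6. Zmat3, an RNA-binding splicing regulator, had 10.6 and 9.34 TPM in room air, against 22.6 and 19.1 TPM in hyperoxia (log2FC 0.99, adjusted p = 0.000174). Trp53inp1, a stress-response gene, had a peak of 157 and 26 at the start site, while its RNA was 13.4 and 13.0 TPM in room air, against 12.8 and 12.6 TPM in hyperoxia (adjusted p = 0.758). Foxo3, a stress transcription factor, had log2FC -0.06 beside a peak of 112 and 21, and Ephx1, an epoxide hydrolase, had log2FC -0.03 beside a peak of 85 and 19. Rap2b, a small GTPase, had log2FC 0.09 beside a peak of 96 and 16, and Ei24, an endoplasmic reticulum protein, had log2FC 0.09 beside a peak of 15 and 10. The 5 genes missed the threshold, so neither a change nor its absence is shown for them. Peak gain alone did not sort these from the genes that rose: the ratios at the 16 targets ran from 1.5 to 7.4, with Cdkn1a at 2.58 and Trp53inp1 at 6.04.

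**Figure D4:**
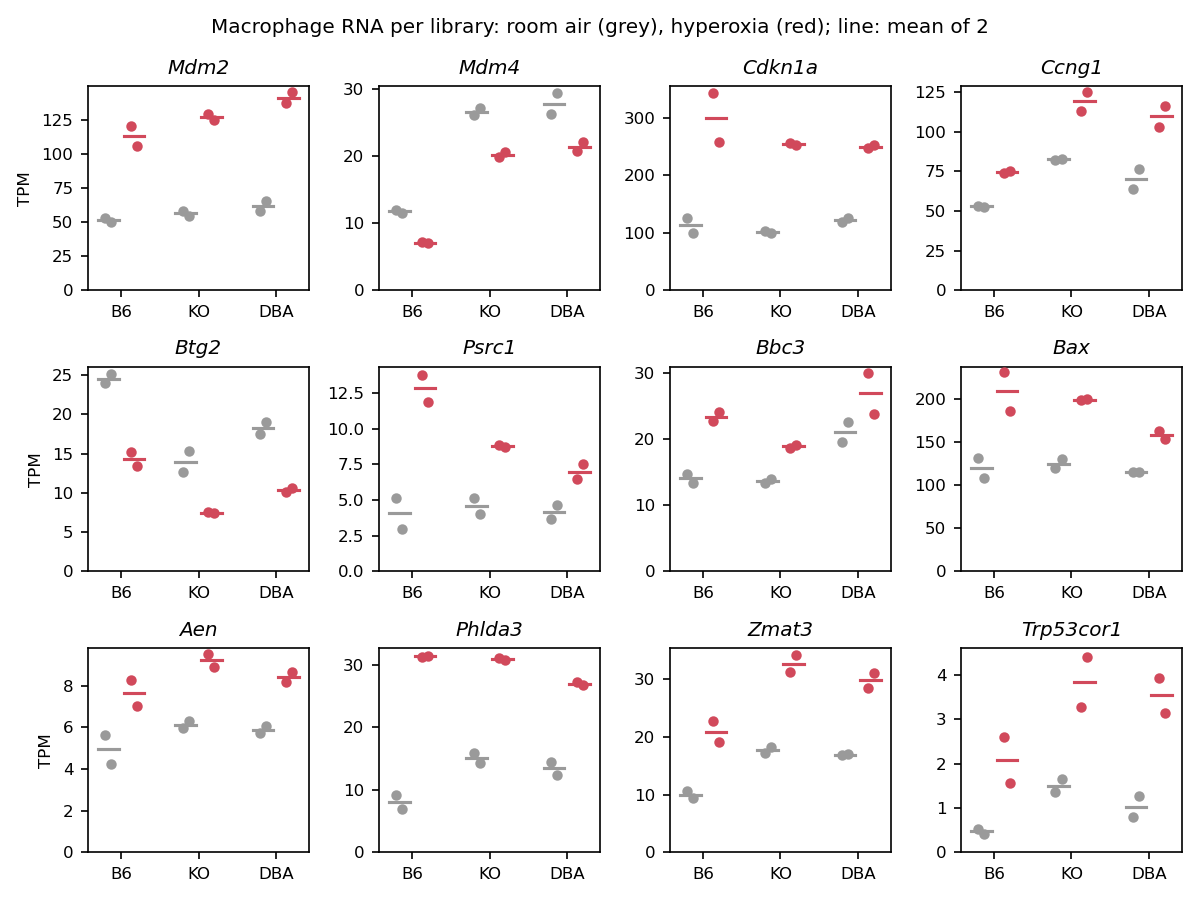
TPM (y axes, each from 0) of 12 genes near kept peaks in the macrophage libraries of B6, KO and DBA, with 1 point per library and a line at the mean of 2. In B6 the hyperoxia points lie above the room-air points for Mdm2, Cdkn1a, Ccng1, Psrc1, Bbc3, Bax, Aen, Phlda3, Zmat3 and Trp53cor1 and below them for Mdm4 and Btg2.

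Genes off the target list that rose were of several kinds. Ftl1, the ferritin light chain and a target of the antioxidant factor Nrf2, had 8320.4 and 8638 TPM in room air, against 15353 and 13865 TPM in hyperoxia (log2FC 0.78, adjusted p = 0.000538). It shares its peak with Bax at a position of -6695 bases, and it has near-identical copies in the genome, so its value is uncertain. Its call was lost under quantile normalization (log2FC 0.38, adjusted p = 0.112). Of the 21 other tested members of the Nrf2 list, without a kept peak, 19 rose, beside 5.68% of all genes. Mylip, a ligase that degrades the LDL receptor, rose from 41.6 and 38.2 TPM to 74.5 and 68.3 TPM (log2FC 0.82, adjusted p = 5.76e-05) beside a weak peak of 14 and 13. Snhg15, a noncoding host RNA, rose from 7.08 and 7.10 TPM to 13.7 and 13.3 TPM (log2FC 0.84, adjusted p = 0.000336). Glipr1 rose from 375 and 334 TPM to 515 and 434 TPM (log2FC 0.42, adjusted p = 0.00622), beside a peak of 308 and 83 inside the gene. Fam212b, below the level set for naming and chosen after its values were seen, went from 0.517 and 0.690 TPM to 2.19 and 2.51 TPM (log2FC 1.06, adjusted p = 0.000647) beside a peak of 54 and 13. Mettl27, Tmem43, Cbr3, Atf1 and Exoc4 complete the 10.

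The 5 kept peaks with the largest relative gain near a start site differed in the B6 RNA beside them. That of Phlda3 (7.4) lay beside the largest rise on the log2(TPM + 1) scale. The others lay beside small changes, no called change or untested genes. The largest ratio within 10 kb of a start, 9.61, was at Mettl27 (chr5:134936763-134936963, scores 173 and 18), whose RNA went from 3.32 and 3.37 TPM to 4.96 and 5.05 TPM (log2FC 0.47, adjusted p = 0.0246). Leaving out any 1 of the 4 B6 libraries ended that call (log2FC 0.46 to 0.48). Tmem43 and Chchd4 share a peak of 110 and 14. Tmem43, a nuclear envelope protein, rose (log2FC 0.43, adjusted p = 0.0138), though without the hyperoxia library marked MF (0.27) or the room-air library marked F (0.31) it was not called. Chchd4, a mitochondrial import protein, had log2FC -0.02 (adjusted p = 0.892). The genes beside 2 further peaks of this kind, Npffr1 (136 and 18) and the chemokine receptor gene Ccr4 (163 and 23), stayed at or below 0.600 TPM in all 12 libraries. At the other end, the peaks near Mir101c (33 and 49), Plekhg3 and Mir5135 (20 and 26), Atf6 (14 and 17) and Irf5 (19 and 23) scored lower in hyperoxia. Of these genes, Plekhg3 had log2FC -0.30, the stress transcription factor Atf6 -0.01 and the interferon regulator Irf5 0.14 in B6, each above the threshold of adjusted p = 0.05. Klhdc4 (log2FC 0.07) and Dyrk3 (log2FC 0.34), beside peaks among the 15 strongest, were not called either, nor was 4930429B21Rik (log2FC 0.13), which shares the Zmat3 peak.

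Falls included complement and interferon genes. C1qa, C1qb and C1qc encode the chains of complement C1q, an abundant macrophage product, and share a weak peak at the C1qc start (chr4:136892915-136893115, scores 24 and 21). C1qa fell from 435 and 362 TPM to 204 and 173 TPM (log2FC -1.07 ± 0.10 SE, adjusted p = 0.000154). C1qb had 2486 and 2022 TPM and then 1680.0 and 1229.6 TPM (log2FC -0.64), and C1qc had 1620.1 and 1319 TPM and then 1115 and 831 TPM (log2FC -0.60). The 3 genes lie in a row and are 1 locus, not 3 independent cases. Without the room-air library marked MF neither C1qb (log2FC -0.49) nor C1qc (-0.45) was called, and without the hyperoxia library marked F C1qc (-0.39) was not. Mx1, an interferon-induced antiviral GTPase, had 9.24 and 3.87 TPM in room air, against 3.14 and 2.19 TPM in hyperoxia (log2FC -0.96, adjusted p = 0.0331). The Mx1 call was lost without the room-air library marked MF (-0.42), its highest, and without the hyperoxia library marked F (-0.77). Oas1g, of the antiviral oligoadenylate synthetase family, fell by 0.66 on the log2 scale (adjusted p = 0.00154), but it has close copies and its value is uncertain. Bst2, an antiviral membrane protein, had log2FC -0.21 (adjusted p = 0.259). Of the 18 other tested interferon-stimulated genes without a kept peak, 10 fell and 0 rose (limma, adjusted p below 0.05), beside falls in 22.8% of all genes. Of the 2 with a kept peak, Mx1 was called and Bst2 was not.

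Pros1, the protein S ligand of Mertk, fell from 26.6 and 28.2 TPM to 13.2 and 17.0 TPM (log2FC -0.83, adjusted p = 0.00113) beside a peak of 43 and 10. Sgpp1, a sphingosine phosphate phosphatase, fell from 45.7 and 48.0 TPM to 24.9 and 28.1 TPM (log2FC -0.80, adjusted p = 0.00157) beside a peak of 69 and 13. Cbfb, a partner of Runx factors, had log2FC -0.59, Elk3, an Ets factor, -0.50, and Vps36, of the endosomal sorting machinery, -0.49. The Elk3 call was lost without the room-air library marked MF (-0.25) or the hyperoxia library marked F (-0.31), and the Vps36 call without either library marked MF (-0.48 and -0.31). Ckap2, named after its values were seen for the match in its promoter, had 5.22 and 3.30 TPM in room air, against 1.56 and 0.679 TPM in hyperoxia (log2FC -1.32 ± 0.25 SE, adjusted p = 0.00462). Its peak scored 29 and 14. Of 30 cell cycle genes on a list, none of them near a kept peak, 28 fell in B6, 13 in KO and 21 in DBA. Of all genes, 22.8%, 16.4% and 13% fell. Ckap2 had log2FC -0.71 in KO (adjusted p = 0.0735) and -0.81 in DBA (adjusted p = 0.0517). The lysosomal protease Ctsb, the single macrophage identity gene with a kept peak, had 5636 and 6043 TPM in room air, against 5725 and 6024 TPM in hyperoxia.

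In KO macrophages 24 of the 101 genes rose (beside 6.88% of all genes) and 18 fell (beside 16.4%). In DBA macrophages 21 rose (beside 5.73%) and 16 fell (beside 13%). Each genotype has its own room-air libraries, and 16 genes rose in all 3 (15.8%, beside 2.95% of all genes) and 11 fell in all 3 (10.9%, beside 6.27%). Mdm2 went from 58.5 and 54.7 TPM to 129 and 124 TPM in KO (log2FC 1.15) and from 57.9 and 65.2 TPM to 137 and 145 TPM in DBA (log2FC 1.18). Cdkn1a went from 103 and 101 TPM to 257 and 252 TPM in KO (log2FC 1.31) and from 119 and 126 TPM to 246 and 252 TPM in DBA (log2FC 1.02). Of the 16 targets with a kept peak 10 rose and 1 fell in KO, and 10 rose and 2 fell in DBA. Trp53inp1 was called in DBA (log2FC 0.46, adjusted p = 0.0127) and not in KO (log2FC 0.26, adjusted p = 0.104). Bbc3 was called in KO (log2FC 0.44, adjusted p = 0.0173) and not in DBA (log2FC 0.33, adjusted p = 0.0609). Differences between DBA and the other genotypes were not tested. With quantile normalization 34 genes rose and 12 fell in KO, beside 11.5% and 11.9% of all genes under that setting. Leaving out any 1 of the 4 KO libraries, or of the 4 DBA libraries, lowered the numbers of rises and falls. This held among these genes and among all genes.

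**Figure D5:**
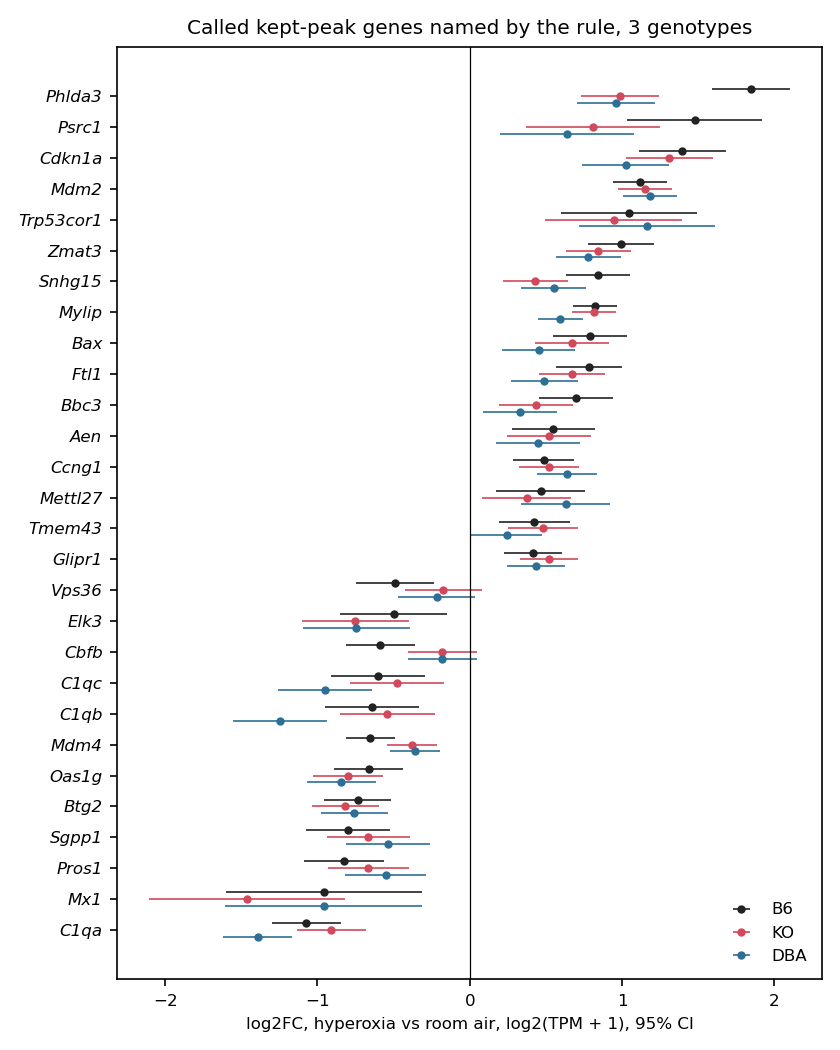
Log2FC of RNA in hyperoxia against room air (x axis, log2(TPM + 1) scale) with 95% confidence intervals from limma for 28 genes near kept peaks that were called in B6 and named by the rule, in B6, KO and DBA macrophages. Genes that rose in B6 lie right of zero and genes that fell lie left of it, and Phlda3 stands at 1.85 in B6, 0.99 in KO and 0.96 in DBA.

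The difference between the oxygen responses of KO and B6 was tested as an interaction, which uses the same B6 libraries as the comparison above. Of the 101 genes, 1 responded more highly in KO (beside 0.657% of all genes) and 1 more lowly (beside 0.795%), so the share is near the background. Phlda3 rose less in KO, from 15.9 and 14.3 TPM to 31.0 and 30.7 TPM (interaction -0.86, adjusted p = 0.0395). The hyperoxia libraries of both genotypes lay between 30.7 and 31.4 TPM, and the room-air libraries were lower in B6 (9.19 and 6.93 TPM). The noncoding A230028O05Rik, named after its values were seen, fell in B6 from 2.92 and 2.77 TPM to 1.70 and 1.68 TPM, and in KO it had 0.210 and 0.0910 TPM and then 0.400 and 0.428 TPM (interaction 0.81, adjusted p = 0.0442). For Cdkn1a the interaction was -0.08 (adjusted p = 0.87), for Mdm2 0.03 (adjusted p = 0.925) and for Psrc1 -0.67 (adjusted p = 0.282). Column names give B6 another date code than KO and DBA, so genotype and that code cannot be told apart. The 8 fibroblast markers summed to 0.676 to 0.978 TPM in B6 room air and 0.141 to 0.22 TPM in B6 hyperoxia. In KO they summed to 100.5 to 127 TPM and then 29.8 to 38.0 TPM, and in DBA to 90.0 to 104 TPM and then 35.3 to 40.4 TPM, so all 4 groups of KO and DBA were far above B6. Neutrophil markers summed to 54.0 to 101 TPM in KO room air and 11.7 to 15.2 TPM in KO hyperoxia. Their part in the differences between genotypes was not tested.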

How the data were processed

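Peak lists came from p53 ChIP-seq of macrophages and lungs, and expression from RNA-seq of 12 macrophage libraries. The deposited TPM values are the authors'. STAR, Bowtie2, HOMER and mm10 stand in the submitters' processing notes with no role stated. TPM columns of 1 library sum to 529220 to 555113, so the listed genes hold part of each library. The score in column 5 of each peak list is the authors' tag count per 10 M tags from HOMER, per the file headers, at 4-fold over input and over local signal and an FDR of 0.001. The tools' versions are not given in the sources used. B6 RNA columns carry the marks MF and F and were matched to their group, not to a numbered sample.

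Overlaps were computed with pandas 2.3.3 in Python 3.11.15, and a ratio sets a hyperoxia score against that of the highest overlapping room-air interval. Start sites are those of the transcripts listed in the deposited TPM table. Genes were tested with limma 3.58.1 in R 4.3.3 on log2(TPM + 1), with a mean for each group, a mean-variance trend and Benjamini-Hochberg adjustment over all 12320 genes with at least 1 TPM in 2 libraries, of 24940 listed. The residual degrees of freedom were 6. Adjusted p below 0.05 was called a change. The fit was tested on simulated data. Low TPM values were whole multiples of what 1 read is worth, given transcript length, in 100% of values at a tolerance of 0.15, which gave the estimated depth.

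Named genes are those within 10 kb of the 15 strongest kept peaks, the 12 largest called rises and falls at a mean of at least 5 TPM, members of the p53 target list with a kept peak, up to 4 members of each other list, and those at the 5 largest and 5 smallest score ratios. The members and gene lists were chosen with earlier results of these data known. Promoter and microRNA sequences are from RefSeq (GRCm38.p6), matched by symbol. Alternatives were another pseudocount (0.1), no filter, quantile normalization, a replicate block, own groups only, each library left out, other overlap rules and other distances to genes.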

Additional observations from a re-analysis of the deposited data

Results flagged for a closer look

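The oxygen response of Phlda3 differed between KO and B6 macrophages by the interaction test (-0.86 on the log2 scale, limma adjusted p = 0.0395). Over 13 alternatives the difference ran from -1.04 to -0.68, with adjusted p from 0.0245 to 0.163, and the call was kept in 4 and lost in 9.

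The noncoding A230028O05Rik differed the other way (0.81, limma adjusted p = 0.0442). Over 13 alternatives it ran from 0.63 to 1.80, with adjusted p from 0.0211 to 0.17, and the call was kept in 1 and lost in 12. Its KO libraries were all below 0.43 TPM.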

How the results depend on the processing

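The count of kept peaks was 298, and it was 271 at an overlap of at least 100 bases, 318 for centres within 500 bases, 264 for intervals at or above the median score of both lists and 260 without peaks of the KO room-air list, an alternative chosen after seeing the data. The median log2 ratio was 1.01 and ran from 0.93 to 1.28. Counts of called genes near kept peaks changed with the fit and with the genes counted: 101 within 10 kb, 28 within 1 kb, 331 within 50 kb, and 40 within 10 kb of peaks at or above the median of the kept peaks in both lists, here called the stronger kept peaks. In B6, 20 rose and 26 fell: the fit on B6 alone gave 0 and 0, starts within 1 kb 9 and 7 (32.1% and 25%), within 50 kb 39 and 75 (11.8% and 22.7%), beside 5.68% and 22.8% of all genes. Falls in B6 were 15 with no filter (beside 7.64% of all genes) and 12 with quantile normalization (beside 10.6%). At the 40 genes of the stronger kept peaks 7 fell, beside 22.8%. In KO, 24 rose and 18 fell: within 1 kb 10 and 3 (35.7% and 10.7%), within 50 kb 52 and 54 (15.7% and 16.3%), at the stronger kept peaks 14 and 6, and 11 fell with no filter. In DBA, 21 rose and 16 fell: with no filter 13 and 8, within 1 kb 10 and 3 (35.7% and 10.7%), within 50 kb 39 and 48 (11.8% and 14.5%), and 4 fell at the stronger kept peaks. In the main fit, 6.88% of all genes rose and 16.4% fell in KO, and 5.73% and 13% did in DBA. With no filter, 6.80% of all genes fell in KO, and 1.94% rose and 4.60% fell in DBA. The interaction called 2 genes: 1 with no filter, 0 in the groups alone (14 higher and 6 lower at an unadjusted p below 0.05), 0 with a pseudocount of 0.1, 1 within 1 kb, 5 within 50 kb and 0 at the stronger kept peaks. Leaving out 1 library gave 14 to 19 rises and 11 to 27 falls in B6, 13 to 17 and 7 to 10 in KO, 11 to 16 and 7 to 13 in DBA, and 0 to 1 interaction calls. Libraries of the same mark in B6 (MF or F) deviated together (r 0.385), and those of the same number in KO (-0.0508) and DBA (0.079) did not. No label says that a mark or number pairs libraries. The replicate block called 22 and 34 genes in B6, 26 and 24 in KO, 25 and 22 in DBA and 5 in the interaction. Of 28 named genes called in B6, 19 lost the call in the B6-only fit alone and 9 in more of 9 settings; the cause was not tested. Genes not called changed sign: 4930429B21Rik (-0.035 to 0.286 over left-out libraries) and Klhdc4 (-0.047 to 0.179), both lowest without room-air F; Atf6 (-0.059 to 0.037, above 0 without either library MF, 0.093 quantile); Chchd4 (-0.076 to 0.038, above 0 without hyperoxia F or room-air MF, 0.127 quantile); Ctsb (-0.041 to 0.059, below 0 without hyperoxia F or room-air MF, -0.243 quantile); Ephx1 (-0.213 to 0.152, above 0 without hyperoxia MF or room-air F, 0.062 quantile); Foxo3 (-0.183 to 0.063, above 0 without the same libraries, 0.074 quantile); and Trp53inp1 (0.126 quantile). Pooled peak lists and 2 libraries per group limit the precision.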
